A study of Bos taurus with 12 samples.

Results

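The genes described here encode the pyruvate dehydrogenase complex with its kinases and phosphatases and the enzymes of the citric acid cycle. There are 31 of them among the 30336 gene IDs counted in liver of newborn Holstein heifer calves, chosen by symbol and not by any measured value. All 31 were found by their Entrez IDs, and all 31 passed the filter on low counts, which left 13212 genes to test. Liver biopsies for RNA sequencing had been taken at 4 d of age from 6 calves per group. Dams of the CON calves ate a control close-up diet with no added Met during the last 28 d of gestation, whereas dams of the MET calves ate that diet plus ethyl cellulose rumen-protected Met (Mepron). The Met was given to the cow and not to the calf, all calves were managed alike after birth, and they were a subset of a larger cohort. All CON libraries had one first index and all MET libraries another, and the effects of index and of diet cannot be told apart.

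Pyruvate dehydrogenase joins glycolysis to mitochondrial oxidation by turning pyruvate into acetyl-CoA. Its kinases switch it off by phosphorylation and its phosphatases switch it on again, and in liver this switch helps to decide whether pyruvate is burned or kept for glucose synthesis. The cycle itself oxidizes acetyl-CoA to carbon dioxide, feeds electrons to the respiratory chain, and lends its intermediates to glucose, amino acid and lipid synthesis. In the newborn calf, which moves from placental glucose to milk, hepatic glucose synthesis starts around birth.

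Between 8277789 and 10397604 reads were counted per library. CON replicate 1 was nearly a copy of CON replicate 4, and MET replicate 1 of MET replicate 3 (chi-square per gene 1.33 and 1.24, against 25.1 to 132 in the other 64 pairs of libraries). Each pair was therefore taken as 1 sample, named CON1+4 and MET1+3 here, and values are mean ± SD over 5 samples per diet (n = 5). The labels describe 6 calves per diet and do not mention such pairs. Levels are counts scaled to a common library total after TMM normalization (CPM), and levels of different genes are compared only per kb of exon. FDR is edgeR's quasi-likelihood p after Benjamini-Hochberg adjustment over all 13212 genes, and a gene was called at FDR ≤ 0.10 over the 12 libraries. This fit counts both libraries of each near-identical pair and so has more libraries than distinct samples, and no call made in it was kept over the 10 samples. Means are over the 10 samples throughout, and a fold change or FDR given without its base is that of the 12 libraries. Liver markers were abundant in every sample, and each of the 4 skeletal muscle markers was at or under the floor of 3 reads, which equals 0.289 to 0.362 CPM. These floors cover counting error only.

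The most abundant transcripts of the pathway were SDHA and MDH2, and the least abundant were PDP1, PDK3, PDPR and PDK1, which regulate pyruvate dehydrogenase. In CON calves the level per kb was highest for SDHA, the flavoprotein subunit of succinate dehydrogenase (229 ± 24.0 CPM per kb), followed by mitochondrial MDH2 (186 ± 17.6 CPM per kb) and the iron-sulfur subunit SDHB (152 ± 19.6 CPM per kb). SUCLG1, SDHD and SUCLG2 followed at 133 ± 15.1, 130 ± 12.9 and 122 ± 8.80 CPM per kb. These 6 genes were above 100 CPM per kb in both diets. At the other end stood PDP1, a catalytic subunit of pyruvate dehydrogenase phosphatase, with 0.937 ± 0.297 CPM per kb, so that the CON means spanned 245-fold. CS, which encodes citrate synthase and opens the cycle, had only 9.67 ± 2.13 CPM per kb. PDP1 rested on 23 to 61 reads per library, the thinnest support of any member, while SDHA had 3302 to 6051.

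With diet, 16 of the 31 genes had a higher mean in MET and 15 a lower one over the 12 libraries. The median log2 fold change (MET over CON) was 0.048 for the pathway and −0.003 for all genes tested. Over the 10 samples 15 genes were higher and 16 lower, with a median of −0.001 for the pathway and −0.002 for all genes. One gene was called, PDK1, which was lower in MET. That is 3.23% of the pathway, against 4.41% of all genes (583 of 13212). Over the 10 samples none of the 31 genes reached FDR ≤ 0.10 in edgeR, and neither did any other gene (0% of 13212, lowest FDR 0.155). At the nominal level, an unadjusted p ≤ 0.05 in edgeR, there were over the 10 samples 5 genes of the pathway, PDK1, PDK4, IDH1 and DLST lower in MET and IDH3G higher. They make up 16.1% of the pathway, and 16.4% of all genes met the same condition. DESeq2 gave the same 5 genes at its nominal level over the 10 samples (16.6% of all genes) and none at FDR ≤ 0.10, which 624 of all genes (4.72%) passed in that tool. For 1 gene, IDH3G, the diets did not overlap over the 10 samples (3.23%, against 3.71% of all genes). In edgeR, the shares of the pathway were thus close to or below those of all genes. The size of the differences was bounded as well. The 95% interval of the fold change stayed within 2-fold in either direction for 30 of the 31 genes over the 12 libraries, PDK4 being the exception, and for 28 over the 10 samples, where PDP1 and IDH1 joined it. In bulk liver, fewer cells of a type and less RNA per cell cannot be told apart.

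**Figure D1:**
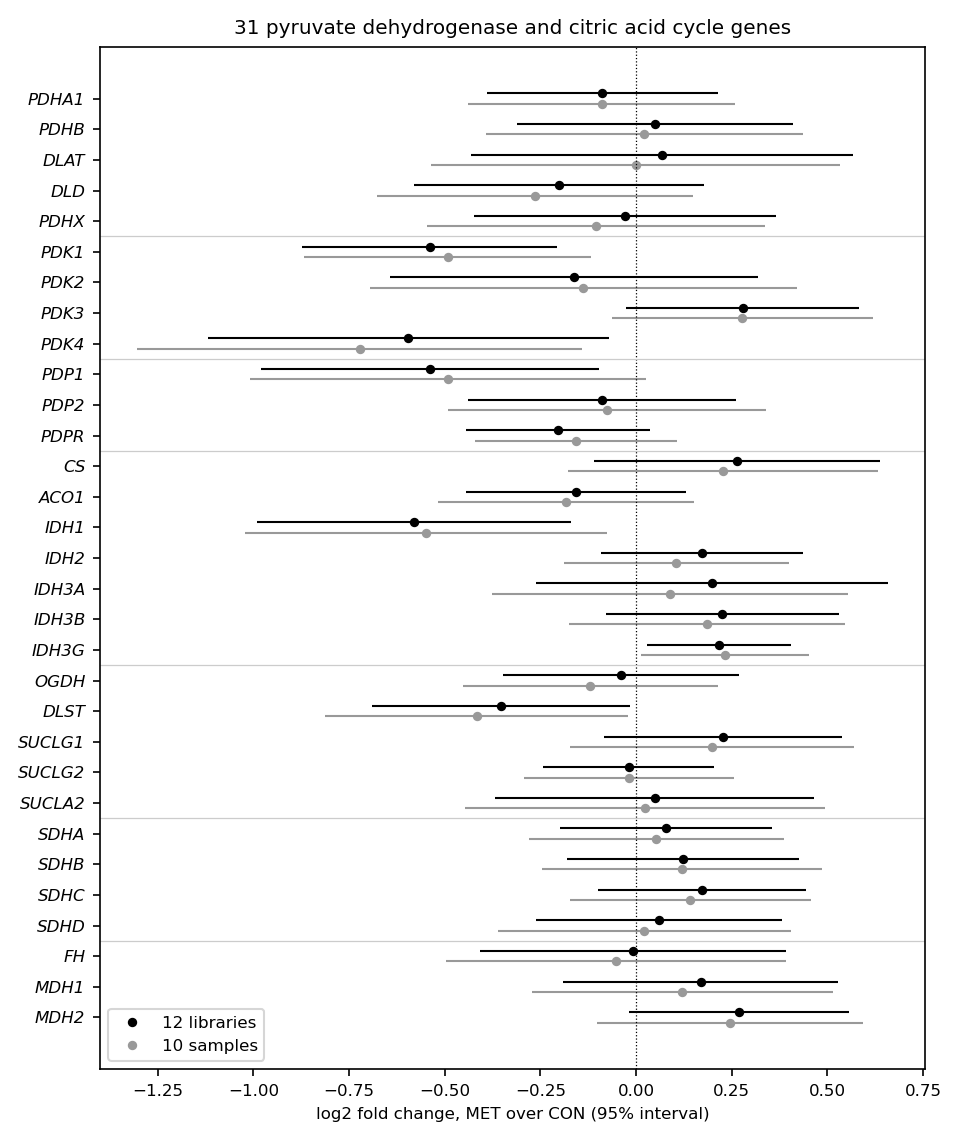
Log2 fold change of MET over CON for each of the 31 genes (horizontal axis), ordered by step of the pathway, with points for the estimate and lines for its 95% interval, in black over the 12 libraries and in grey over the 10 samples. Most intervals cross 0, and the lowest estimates are those of PDK4, IDH1, PDK1 and PDP1.

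The kinases of pyruvate dehydrogenase, which inactivate the complex, held 2 of the 4 largest differences, those of PDK4 and PDK1. PDK1 (Entrez 528655, chromosome 2, 24065277 to 24107467, minus strand, UMD 3.1.1) encodes the isoform known for its induction under low oxygen. Its level was 19.2 CPM in CON1+4, 17.9 in CON2, 18.9 in CON3, 28.7 in CON5 and 15.6 in CON6. In MET it was 10.7 CPM in MET1+3, 15.1 in MET2, 14.6 in MET4, 15.4 in MET5 and 15.6 in MET6. MET6 was level with the lowest CON sample, and the other 4 MET samples were below all CON samples. Mean PDK1 was 20.03 ± 5.03 CPM in CON and 14.3 ± 2.02 in MET. The log2 fold change was −0.54 over the 12 libraries (SE 0.156, FDR 0.0914) and −0.49 over the 10 samples (SE 0.172, FDR 0.213). The exact two-sided permutation test over the 10 samples gave p = 0.0159, where 0.00794 is the smallest possible. The call was close to its threshold. Leaving out 1 library at a time gave an FDR of 0.0908 to 0.148 and kept the call only without CON replicate 6, and removing the trend on gene length gave 0.16. The study lists PDK1 as differentially expressed from these same libraries, so that list is not independent of this value.

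PDK4 (Entrez 507367, chromosome 4, 12754202 to 12767677, minus strand) encodes the kinase that fasting and fatty acids induce. It had 79.7 CPM in CON1+4, 51.9 in CON2, 90.8 in CON3, 121.8 in CON5 and 54.8 in CON6. The MET values were 75.3 CPM in MET1+3, 49.9 in MET2, 41.4 in MET4, 32.0 in MET5 and 42.8 in MET6. All MET samples except MET1+3 were below the lowest CON sample. Mean PDK4 was 79.8 ± 28.7 CPM in CON and 48.3 ± 16.4 in MET, and the log2 fold change was −0.59 in the 12 libraries (SE 0.244, FDR 0.192) and −0.72 over the 10 samples (SE 0.267, FDR 0.231). The exact permutation p was 0.0476.

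The other two kinases had smaller differences, and neither was called. PDK2, the kinase found in most tissues, had 62.0 CPM in CON1+4, 73.4 in CON2, 26.4 in CON3, 46.4 in CON5 and 36.9 in CON6. In MET it had 51.2 CPM in MET1+3, 56.0 in MET2, 30.9 in MET4, 37.5 in MET5 and 47.2 in MET6. The CON samples enclosed all MET samples, and the log2 fold change was −0.16 (SE 0.225, FDR 0.72). PDK3, an X-linked kinase of low abundance, had 9.36 CPM in CON1+4, 7.92 in CON2, 6.98 in CON3, 9.38 in CON5 and 7.47 in CON6. Its MET values were 11.3 CPM in MET1+3, 9.57 in MET2, 7.25 in MET4, 11.0 in MET5 and 10.7 in MET6. Here 4 of the 5 MET samples were above all CON samples, with MET4 among the lowest. The log2 fold change of PDK3 was 0.28 over the 12 libraries (SE 0.142, FDR 0.284) and 0.28 over the 10 samples (FDR 0.4, exact permutation p = 0.103).

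**Figure D2:**
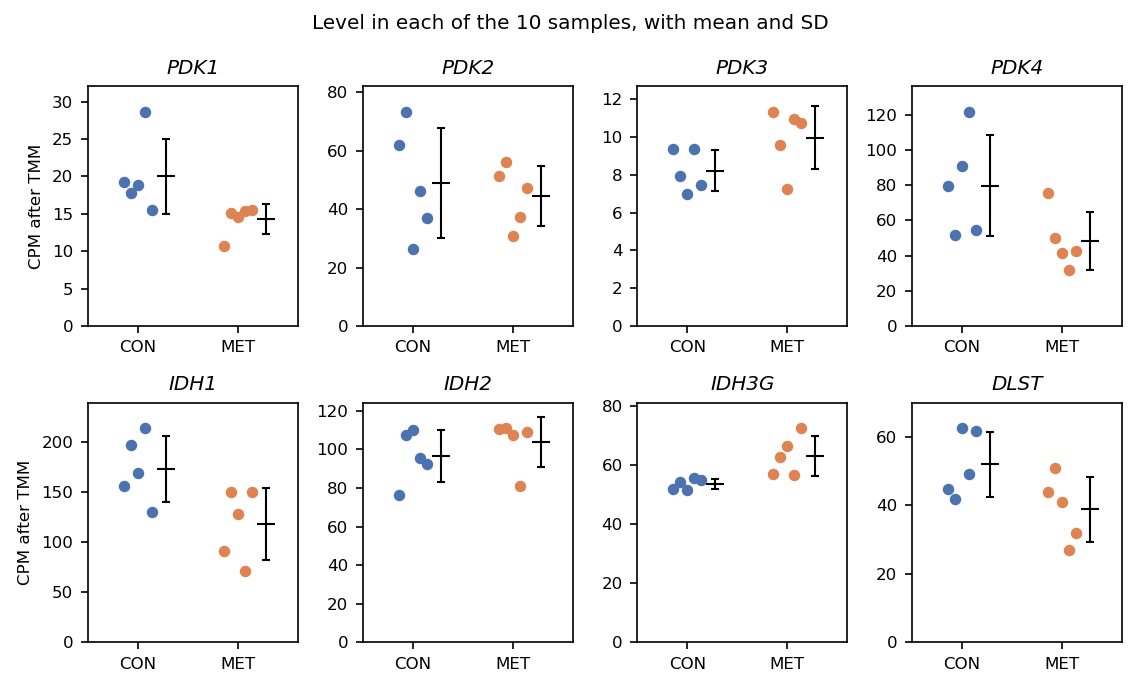
CPM after TMM scaling (vertical axis, from 0) in the 5 CON and 5 MET samples for the 4 kinases, IDH1, IDH2, IDH3G and DLST, with 1 point per sample and bars for mean and SD. IDH3G is the one gene shown whose diets do not overlap, with 51.5 to 55.5 CPM in CON and 56.6 to 72.4 in MET.

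The makeup of the kinases by isoform was computed from levels per kb within each sample, which does not depend on how samples are scaled. A trend on gene length is not removed in this way, and PDK3 has the fewest exonic bases of the 4 (2437, against 3413 to 3859). The shares were not recomputed with that trend removed. PDK4 held 47.5% ± 11.4 of the summed kinase level in CON and 37.4% ± 6.60 in MET, and PDK2 held 32.9% ± 11.96 and 38.7% ± 4.12. The PDK1 share was 11.8% ± 1.17 and 11.5% ± 3.19. The PDK3 share was 7.99% in CON1+4, 7.54% in CON2, 7.24% in CON3, 6.74% in CON5 and 9.46% in CON6. It was 11.0% in MET1+3, 10.5% in MET2, 11.1% in MET4, 16.1% in MET5 and 13.1% in MET6. The diets did not overlap in the PDK3 share, also over the 12 single libraries (6.74 to 9.46% in CON and 10.5 to 16.1% in MET). PDK3 itself overlapped between the diets, and its share also rises where the other kinases, all with lower means in MET, fall. The shares of PDK1, PDK2 and PDK4 overlapped. No rate of non-overlap among comparable ratios was computed, and these shares are given as a description without a test.

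**Figure D3:**
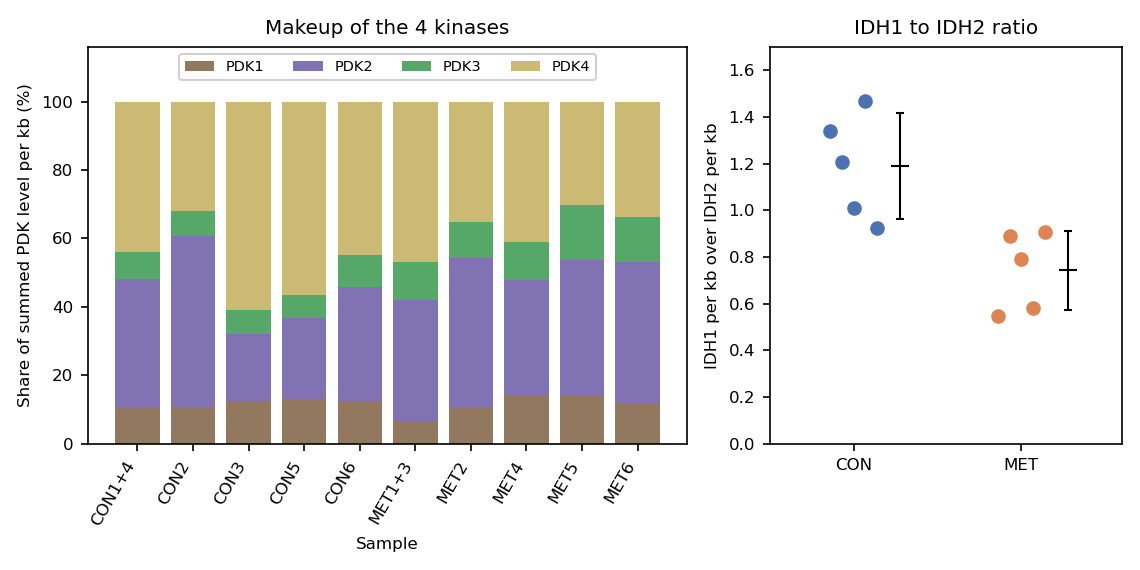
Left, stacked bars show the share (%) of each of the 4 kinases in their summed level per kb in each sample, with PDK3 at 6.74 to 9.46% in CON and 10.5 to 16.1% in MET. Right, the IDH1 to IDH2 ratio of levels per kb with 1 point per sample and bars for mean and SD, where the lowest CON sample is at 0.925 and the highest MET sample at 0.908.

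The phosphatases, which reactivate the complex, all had a lower mean in MET, and none was called. PDP1, the calcium-sensitive catalytic subunit, had 2.71 to 6.33 CPM in CON and 2.65 to 3.81 CPM in MET, with log2 fold changes of −0.54 in the 12 libraries (SE 0.206, FDR 0.166) and −0.49 over the 10 samples (FDR 0.327, exact permutation p = 0.0952). PDP2, the insulin-responsive catalytic subunit, had 52.4 ± 9.25 CPM in CON and 49.8 ± 13.4 in MET (log2 fold change −0.09, FDR 0.80). The regulatory subunit PDPR had 38.0 ± 6.14 and 34.2 ± 2.24 CPM (−0.20, FDR 0.32). The kinases summed to 3.84 ± 1.04 times the level per kb of the catalytic phosphatases in CON and to 3.30 ± 1.11 times in MET, with overlapping ranges.

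None of the 5 structural genes of the complex was called. PDHA1 and PDHB encode the subunits of its E1 component, which decarboxylates pyruvate. PDHA1 had 90.0 to 112.7 CPM in CON and 68.3 to 128.3 in MET (log2 fold change −0.09, SE 0.141, FDR 0.764), and PDHB had 83.5 to 125.1 and 65.8 to 130.5 CPM (0.05, SE 0.168, FDR 0.903). Per kb, PDHA1 stood at 0.358 ± 0.0442 of PDHB in CON and at 0.332 ± 0.0383 in MET. PDHA1 overlaps MAP3K15 on the other strand, and the reads were counted by strand. DLAT, the acetyltransferase core, had 46.2 ± 12.8 CPM in CON and 46.1 ± 14.5 in MET. DLD, the dehydrogenase that this complex shares with the 2-oxoglutarate complex, had 63.8 ± 13.5 and 53.1 ± 11.9 CPM, the largest difference of the 5 (log2 fold change −0.20, FDR 0.546). PDHX, which binds DLD to the core, had 23.3 ± 4.37 and 21.6 ± 5.72 CPM.

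None of the 7 genes that handle citrate and isocitrate was called, and IDH1 and IDH3G alone among them passed the nominal level over the 10 samples. IDH1 (Entrez 281235, chromosome 2, 96941043 to 96962496, minus strand) encodes the cytosolic and peroxisomal isocitrate dehydrogenase, which makes NADPH. It had 156.0 CPM in CON1+4, 196.9 in CON2, 169.0 in CON3, 213.9 in CON5 and 129.8 in CON6. In MET it had 91.6 CPM in MET1+3, 149.9 in MET2, 128.6 in MET4, 71.2 in MET5 and 150.3 in MET6. Of the MET samples, 3 were below all CON samples, and MET2 and MET6 lay between CON6 and CON1+4. Mean IDH1 was 173 ± 33.2 CPM in CON and 118 ± 35.6 in MET, and the log2 fold change was −0.58 in the 12 libraries (SE 0.191, FDR 0.123) and −0.55 over the 10 samples (SE 0.217, FDR 0.253). The exact permutation p was 0.0397. The cytosolic aconitase ACO1, which is also an iron-responsive RNA-binding protein, had 120.2 to 169.3 CPM in CON and 101.3 to 168.0 in MET (−0.16, FDR 0.539).

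IDH2, the mitochondrial NADPH-forming isoform, had 96.4 ± 13.4 CPM in CON and 104 ± 12.9 in MET (log2 fold change 0.17 over the 12 libraries, SE 0.123, FDR 0.455, and 0.11 over the 10 samples). The ratio of IDH1 to IDH2, in levels per kb within a sample, was 1.34 in CON1+4, 1.21 in CON2, 1.01 in CON3, 1.47 in CON5 and 0.925 in CON6. In MET the ratio was 0.545 in MET1+3, 0.890 in MET2, 0.789 in MET4, 0.580 in MET5 and 0.908 in MET6. The diets did not overlap, with means of 1.19 ± 0.226 and 0.742 ± 0.171, and over the 12 single libraries the ranges were 0.925 to 1.47 and 0.5002 to 0.908. IDH1 was thus the more abundant transcript of the 2 in 4 of the 5 CON samples and the less abundant in all 5 MET samples. The ratio is a description, and it was not tested. IDH1 has 2645 exonic bases and IDH2 1740, and the ratio was not recomputed with the trend on gene length removed. No rate of non-overlap among comparable ratios was computed.

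IDH3A, IDH3B and IDH3G encode the subunits of the NAD-dependent isocitrate dehydrogenase of the cycle proper. IDH3G (Entrez 614145, chromosome X, 39916806 to 39925366, minus strand), a regulatory subunit, had 51.8 CPM in CON1+4, 54.1 in CON2, 51.5 in CON3, 55.5 in CON5 and 54.8 in CON6. Its MET values were 56.8 CPM in MET1+3, 62.5 in MET2, 66.3 in MET4, 56.6 in MET5 and 72.4 in MET6, all above the highest CON sample. The CON samples were tight, with an SD of 1.79 CPM around 53.5, against 6.67 around 62.9 in MET. The log2 fold change was 0.22 over the 12 libraries (SE 0.0878, FDR 0.186) and 0.23 over the 10 samples (SE 0.101, FDR 0.286). The exact permutation p was 0.00794, the smallest that 5 against 5 samples allow. This value follows from the lack of overlap and is no further evidence. Taken as single libraries, MET replicate 3 at 55.1 CPM was just under CON replicate 5. With library size only, and with the length trend removed, the diets overlapped and IDH3G did not pass the nominal level over the 10 samples. The catalytic subunit IDH3A had 17.9 ± 5.18 CPM in CON and 18.9 ± 3.58 in MET, and IDH3B had 111 ± 11.0 and 126 ± 28.5 CPM, with FDR 0.637 and 0.388. IDH3B overlaps NOP56 on the other strand. CS had 29.3 ± 6.45 CPM in CON and 34.2 ± 7.57 in MET (log2 fold change 0.26, FDR 0.412).

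At the next step, DLST (Entrez 506888, chromosome 10, 86533886 to 86551551, plus strand) encodes the succinyltransferase core of the 2-oxoglutarate dehydrogenase complex. It had 44.7 CPM in CON1+4, 42.0 in CON2, 62.6 in CON3, 49.2 in CON5 and 61.6 in CON6. In MET it had 43.8 CPM in MET1+3, 50.9 in MET2, 41.0 in MET4, 27.0 in MET5 and 32.1 in MET6. The diets overlapped, and 3 MET samples were below all CON samples. Mean DLST was 52.0 ± 9.57 CPM in CON and 38.9 ± 9.49 in MET, and the log2 fold change was −0.35 in the 12 libraries (SE 0.157, FDR 0.224) and −0.42 over the 10 samples (SE 0.182, FDR 0.288). The exact permutation p was 0.0794. OGDH, the decarboxylating subunit of the same complex, had 106 ± 20.8 and 97.7 ± 11.8 CPM (−0.04 over the 12 libraries, FDR 0.908, and −0.12 over the 10 samples).

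No subunit of succinyl-CoA ligase was called. SUCLG1, its common α-subunit, had 151.7 to 196.5 CPM in CON and 118.9 to 227.6 in MET, with 4 of 5 MET samples above all CON samples and MET5 below them (log2 fold change 0.23, SE 0.145, FDR 0.398). SUCLG2, the β-subunit of the GTP-forming enzyme, had one of the narrower intervals of the fold change. Its levels were 284 ± 20.6 and 281 ± 39.4 CPM, and the interval of its log2 fold change ran from −0.24 to 0.20 over the 12 libraries and from −0.29 to 0.26 over the 10 samples. SUCLA2, the β-subunit of the ATP-forming enzyme, had 18.2 ± 5.02 and 18.5 ± 4.86 CPM. Per kb, the GTP-forming β-subunit exceeded the ATP-forming one 15.1 ± 3.804 times in CON and 14.3 ± 2.20 times in MET.

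All 4 subunits of succinate dehydrogenase, which is also complex II of the respiratory chain, had a slightly higher mean in MET, and none was called. Log2 fold changes were between 0.06 for SDHD and 0.17 for SDHC, with SE of 0.126 to 0.150 and FDR of 0.466 to 0.855. With the trend on gene length removed, SDHA (0.085) and SDHC (0.088) stayed higher, whereas SDHB had no difference and SDHD was at −0.023. SDHA had 445.1 to 561.4 CPM in CON and 369.5 to 590.7 in MET, SDHB 144.5 to 198.7 and 132.4 to 234.6, the membrane anchor SDHC 42.0 to 64.7 and 48.8 to 64.6, and the anchor SDHD 154.3 to 194.9 and 109.7 to 233.7. FH, the fumarase, had 150 ± 31.6 CPM in CON and 145 ± 38.8 in MET (log2 fold change −0.01 over the 12 libraries, SE 0.187, and −0.05 over the 10 samples). The malate dehydrogenases had higher means in MET. MDH2 of the mitochondrion had 224.3 to 279.9 CPM in CON and 195.5 to 346.4 in MET, with 4 of 5 MET samples above all CON samples (0.27, SE 0.134, FDR 0.272), and cytosolic MDH1 had 108 ± 19.6 and 117 ± 25.5 CPM (0.17, FDR 0.601). The MDH1 to MDH2 ratio of levels per kb was 0.456 ± 0.0793 and 0.419 ± 0.0387.

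Levels of the pathway varied between samples of the same diet. MET5 had the lowest value of the 10 samples for 16 of the 31 genes (51.6%), whereas it was lowest for 9.66% of all genes tested. The 16 included 4 of the 5 structural genes of pyruvate dehydrogenase, 3 of the 4 succinate dehydrogenase subunits, FH and MDH2. The median deviation of the pathway genes from their own means was −0.41 log2 units in MET5 and 0.005 for all genes in that sample. The MET5 library also stood apart over all genes, with the 9 largest chi-square values of any pair (83.5 to 132 per gene) all in pairs that include it. CON1+4 was lowest for another 7 genes (22.6%, against 10.6% of all genes), among them CS, IDH3A and MDH1, with a median deviation of −0.20. At the upper end, MET2 was highest for 9 of the 31 genes, against 8.27% of all genes, and MET4 for 7, against 12.7%. Only PDK1 was lowest in MET1+3. MET5 had 10010787 counted reads and a TMM factor of 0.894, the lowest of the 12, next to 0.895 for CON replicate 2; their part in its low values was not tested.

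**Figure D4:**
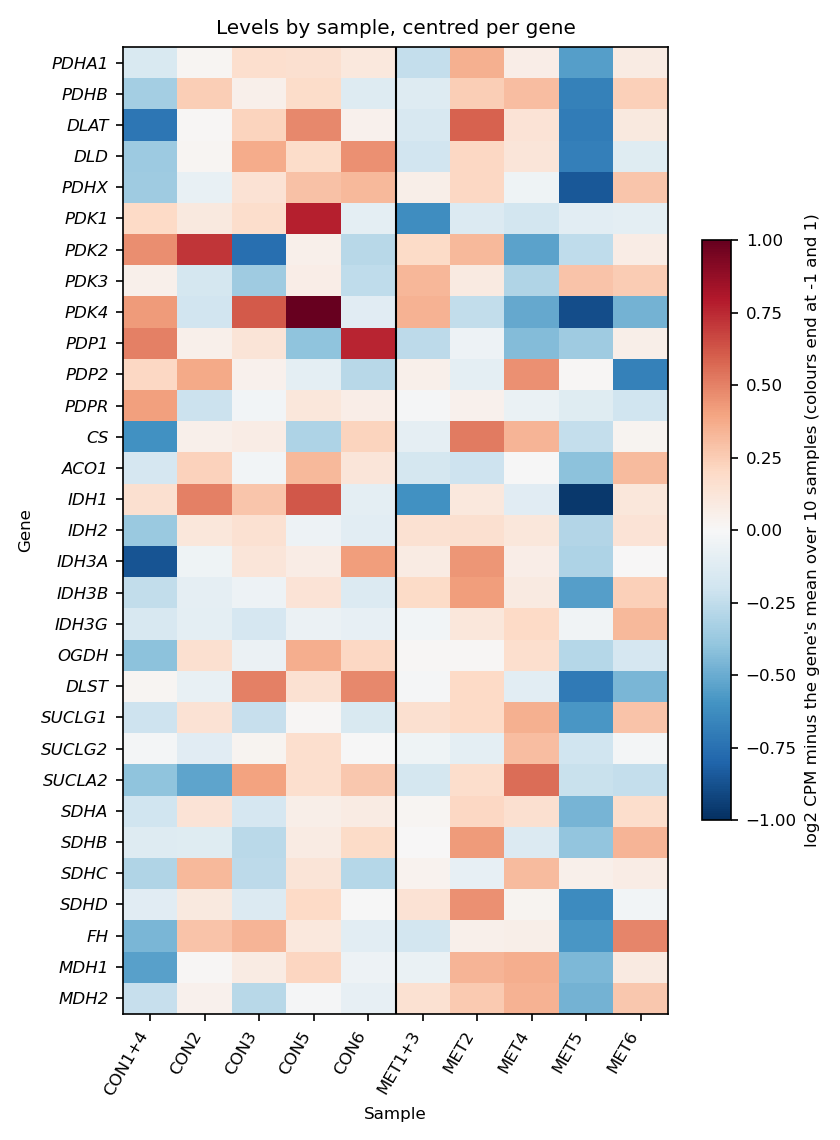
Heat map of log2 CPM minus each gene's mean over the 10 samples, with genes in pathway order (vertical) and samples in columns, CON left and MET right of the line. The MET5 column is blue for most genes, with a median of −0.41, while the MET2 column has a median of 0.20.

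The counts were repeated without MET replicate 5. Over the 10 samples reduced in this way, 20 genes of the pathway had a higher mean in MET and 11 a lower one, and 6 of 31 passed the nominal level, against 14.6% of all genes. PDK1, PDK4 and IDH3G stayed among them, and MDH2 (log2 fold change 0.36, SE 0.121, FDR 0.265), SUCLG1 (0.33, SE 0.124, FDR 0.28) and IDH3B (0.31, SE 0.123, FDR 0.29) were added with higher values in MET. IDH1 narrowly missed it at a log2 fold change of −0.415 (SE 0.19, FDR 0.344), and DLST missed it at −0.31 (SE 0.17, FDR 0.415). None had FDR ≤ 0.10 in that fit, nor over the 12 libraries without MET replicate 5, where MDH2 came nearest (FDR 0.104).

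The fold change also went with the length of the gene. Across the 31 genes, log2 fold change over the 12 libraries and exonic length had a Spearman rho of −0.63, and across all 13212 genes it was −0.31. These are correlations across genes, which share the same libraries and are not independent replicates. Of the 13 pathway genes with under 2000 bases of exon, 11 had a higher mean in MET, the exceptions being DLST and FH. Of the 18 genes with 2000 bases or more, 13 had a lower mean. With each sample's trend on length removed, the median of the pathway was 0 over the 12 libraries, 26 of 31 genes kept their direction, and none of the 31 was called, against 1.87% of all genes. PDK1, IDH1, PDK4 and DLST passed the nominal level over the 10 samples in that setting while IDH3G did not, against 14.25% of all genes.

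**Figure D5:**
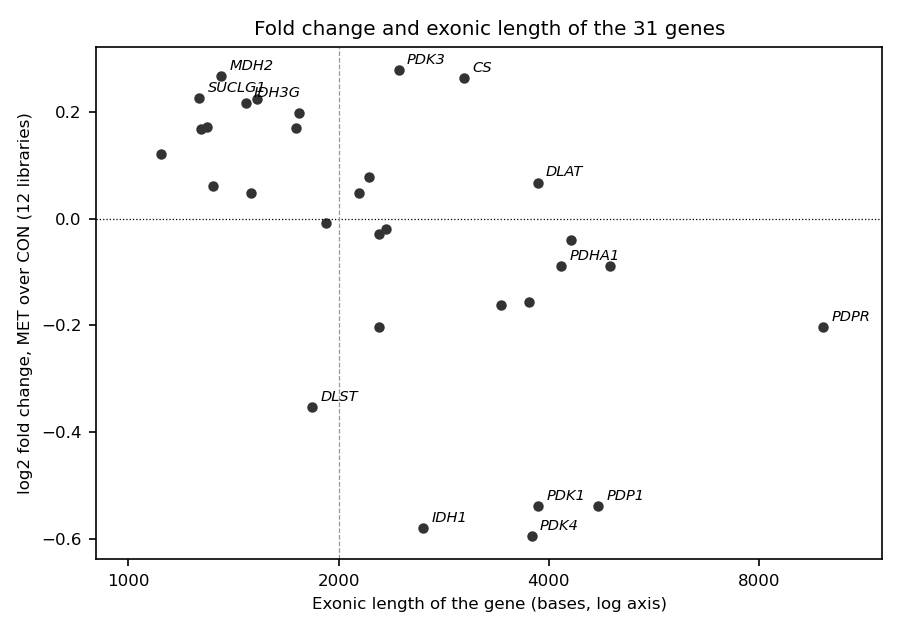
Log2 fold change of MET over CON over the 12 libraries (vertical axis) against exonic length in bases (log axis) for the 31 genes, 1 point each, with the dashed line at 2000 bases. Of the 13 shorter genes 11 are above 0, and of the 18 longer ones 13 are below it.

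Among 6 hepatocyte markers, ALB, TF, CPS1 and APOB had negative log2 fold changes over the 12 libraries (−0.65, −0.25, −0.32 and −0.38), and TTR and ASGR1 did not (0.07 and 0.03). APOB alone was called (1113 to 1337 CPM in CON and 813 to 1043 in MET, FDR 0.0859, and over the 10 samples −0.41 with FDR 0.188). The 6 genes summed to 87700 to 133000 CPM in CON and 67980 to 103600 in MET, but ALB and TF made up 92.5 to 95.5% of this sum. The summed macrophage markers were at 927 to 1321 CPM in CON and 1082 to 1495 in MET, and the sums of the cholangiocyte, endothelial, stellate, erythroid and lymphoid markers overlapped likewise, with none of their genes called. The part of these markers in the values of the kinases and of IDH1 was not tested.

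Of 35 neighbouring genes of the pathway that were listed for their function, 33 were tested and 3 were called over the 12 libraries (9.09%, against the 4.41% of all genes given above). Over the 10 samples none was called, 12.1% of the 33 passed the nominal level against 16.4% of all genes, and 3.03% were without overlap against 3.71%. PCK1, the cytosolic carboxykinase that draws oxaloacetate into glucose synthesis, had 827 CPM in CON1+4, 364 in CON2, 532 in CON3, 659 in CON5 and 390 in CON6. In MET it had 298 CPM in MET1+3, 400 in MET2, 294 in MET4, 275 in MET5 and 240 in MET6, so that MET2 alone reached into the CON range. Its log2 fold change was −0.99 over the 12 libraries (SE 0.214, FDR 0.057) and −0.88 over the 10 samples (FDR 0.175, exact permutation p = 0.0238). GOT1, the cytosolic aspartate aminotransferase, had 35.6 to 92.6 CPM in CON and 82.7 to 144.2 in MET (0.99, SE 0.233, FDR 0.0674, and over the 10 samples 0.86, exact permutation p = 0.0159). PPARA, the fatty acid receptor known to induce PDK4, had 15.9 to 19.6 CPM in CON and 10.2 to 15.4 in MET, with no overlap (−0.42, SE 0.116, FDR 0.0849). Over the 10 samples its log2 fold change was −0.45 (FDR 0.178). The exact permutation p of 0.00794 again follows from the lack of overlap. The 3 called neighbours are, like PDK1, on lists that the study drew from the same libraries. On leaving out 1 library at a time, PCK1 stayed called in 10 of 12 fits, GOT1 in 8 and PPARA in 2.

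One further neighbour, SDHAF1, an assembly factor for the iron-sulfur subunit of succinate dehydrogenase, passed the nominal level over the 10 samples, with 6.06 to 10.9 CPM in CON and 10.3 to 15.7 in MET (log2 fold change 0.49, FDR 0.279, exact permutation p = 0.0635). The other 29 neighbours tested were neither called over the 12 libraries nor past the nominal level over the 10 samples. They include PCK2 and cover pyruvate entry, mitochondrial carriers, lipoate and thiamine cofactors and regulators. Over the 12 libraries 3 of them, with PCK2 among these, passed the nominal level. OGDHL had no read in any library, and ME3 was below the filter.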

How the data were processed

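Calf liver RNA was sequenced from stranded mRNA libraries, single-end, on 1 lane. The authors aligned the reads to UMD 3.1.1 with STAR 2.5.3a and deposited raw counts per gene from featureCounts (Subread 1.5.2), counted by strand at exons, without normalization. Symbols were matched by Entrez ID to a RefSeq gene table of a later assembly, which named 25105 of 30336 IDs. Positions are those of the deposited files.

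Counts were tested in R 4.3.3 with edgeR 4.0.16 (TMM, filterByExpr at its defaults of 10 for the minimum count and 15 for the total, quasi-likelihood F-test on diet alone), over 12 libraries and over 10 samples with the reads of near-identical libraries summed. The 95% intervals come from the coefficient, its SE and the t quantile at the test's degrees of freedom. Exact permutation tests were two-sided on log2 CPM (prior count 2) over 252 arrangements. Alternatives were RLE factors, library size only, no filter, DESeq2 1.42.0, removal of each sample's length trend (span 0.5), a replicate block and leaving out each library. Steps were tested on simulated data, and figures were drawn with Python 3.11.15.

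Groups came from the sample titles. The genes, the lists of neighbours and markers and the tests were chosen with earlier results of these data known. Every one of the 31 genes is named. Values in each sample are given for pathway genes called over 12 libraries, without overlap or past the nominal level of 0.05 over 10 samples. They are also given for the 4 kinases and, among the neighbours, for PCK1 alone. Neighbours are named where called or past that level, besides the 2 that were not tested and PCK2, the other isoform of PCK1. The shares of the kinases and the comparison by exonic length were added after the files had been seen. With 8277789 to 10397604 counted reads per library, floors cover counting error only, because PCR copies could not be told from separate molecules. No sequences are shown, because no genome was used here.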

Additional observations from a re-analysis of the deposited data

Results flagged for a closer look

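Dixon's criterion at the 95% level was applied to 70 groups of 5 samples. These were the 31 pathway genes and 4 neighbours (PCK1, GOT1, PPARA and SDHAF1), in each diet. In 5 groups 1 sample stood apart from the other 4, and chance alone flags about 1 in 20 such groups. PDK1 stood apart in both diets. CON5 had 28.67 CPM, with the other CON samples between 15.56 and 19.22, and MET1+3 had 10.74 CPM, with the other MET samples between 14.62 and 15.57. The other 3 were all low values of MET5 in mitochondrial enzymes. IDH2 had 80.79 CPM in MET5 against 107.2 to 110.9 in the other MET samples, SUCLG1 118.9 against 198.5 to 227.6, and MDH2 195.5 against 302.8 to 346.4.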

How the results depend on the processing

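With RLE factors 1 pathway gene and 3 neighbours were called as before (4.56% of all genes). The 1 pathway gene called over the 12 libraries became 0 with library size only, without the filter, with the length trend removed and over the 10 samples, 2 with DESeq2 (PDK1 and IDH1, adjusted p 0.0392 and 0.0576), and 0 to 1 on leaving out single libraries. The shares of all genes called in these fits were 0.81% with library size only, 1.121% without the filter, 1.87% with the length trend removed, 9.95% with DESeq2 and 0.197 to 4.27% on leaving out single libraries. The 5 genes past the nominal level over the 10 samples became 2 with library size only and 2 to 6 on leaving out single libraries, the 2 being reached without CON replicate 5 (PDK1 and PDP1). Counts of 3 resulted without CON replicate 2, 3 or 6. Of all genes, 12.76% passed with library size only, 12.56 to 16.42% on leaving out single libraries, and 15.96%, 12.56% and 14.23% without CON replicate 2, 3 and 6. The gene without overlap of the diets became 0 over the 12 libraries, with library size only and with the length trend removed, where 2.56%, 2.57% and 3.02% of all genes were without overlap. The 3 neighbours called became 1 with library size only, 0 over the 10 samples and 0 to 3 on leaving out single libraries, with 0 without CON replicate 1 or 4 and 1 without MET replicate 1 or 6. The median log2 fold change of the pathway lay between −0.028 and 0.094 on leaving out single libraries and changed sign without CON replicate 1 or 4 or MET replicate 2 or 4. The cause of these changes was not tested. With the replicate number as a block over the 12 libraries, 0 pathway genes and 0 neighbours were called, PDK1 had FDR 0.169, and 6 genes were called in all. Libraries of the same number did not deviate together (r from −0.174 to 0.139, and no CON library correlated best with the MET library of its own number). A pairing with little effect on expression would not be seen in this way, and the titles do not say what the numbers mean. No block was fitted to the 10 samples, where each summed sample carries 2 numbers. Depth limits PDP1 most, at 23 to 61 reads per library.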
